A study of Mus musculus with 16 samples.

Results

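The comparison concerns astrocytes from the gate positive for an IL-33 reporter, sorted from the spinal cord and from the thalamus of the same mice. Its 8 libraries, of 16 in the series, are the 4 spinal cord and the 4 thalamus libraries of the IL-33 positive gate, and each of 4 mice gave 1 of each. The other 8 libraries are the IL-33 negative astrocytes of the same mice and regions. All groups shared the strain C57BL/6, the age of postnatal day 15 and the genotype IL-33-mCherry (het)/Aldh1l1-GFP+, that is, heterozygous for an mCherry reporter of IL-33 and positive for a GFP reporter of the astrocyte gene Aldh1l1. No group without the reporters belongs to the series, and the role of GFP in sorting is not stated in the labels. A feature entered the fit with at least 1 FPKM in at least 4 of the 8 libraries. RNA was read as FPKM, which scale fragments to transcript length and library size, in the deposited table. Differences were fitted within mice with limma on log2(FPKM + 1), and a feature was called at a Benjamini-Hochberg adjusted p under 0.05 over all features tested. The p-values rest on the spread of the regional difference between these 4 mice, which limma moderates with the spread of all features tested.

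Astrocytes keep much of the positional identity of the neural tube segment in which their progenitors arose. Hox genes mark the hindbrain and spinal cord along the head-to-tail axis, and homeobox genes such as Otx2 and Six3 mark the forebrain and midbrain, which lie ahead of the Hox domain. Mature astrocytes also take up glutamate and potassium, store glycogen, and supply lipids and matrix proteins, and the amounts of the proteins for these tasks differ between brain regions. IL-33 is a nuclear cytokine that astrocytes can release and that acts on microglia through the receptor ST2.

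Summed FPKM ran from 984986 to 1182120 in the spinal cord and from 1092780 to 1283880 in the thalamus, and 14074 to 14285 and 14418 to 14731 features reached 1 FPKM. Sequencing depth is unknown from these values. Mitochondrial transcripts took 43.7% to 49.2% of summed FPKM in the spinal cord and 51.3% to 56.7% in the thalamus, so the ranges did not overlap. Pearson correlations between libraries across tested features were 0.861 to 0.911 within a region and 0.833 to 0.865 between regions, where features are not independent replicates. Markers of astrocytes were abundant in each library: 12 of them summed to 13659.6 to 15134 FPKM in the spinal cord and to 6197 to 7669.8 FPKM in the thalamus. Of the 12, 9 were called higher in the spinal cord and 1, Slc1a3, lower. In bulk RNA, fewer cells of a type and less RNA per cell cannot be told apart. Markers of each other cell type summed to less than the astrocyte markers, and for several types the ranges of the regions did not overlap. The 20 oligodendrocyte markers summed to 224 to 266 FPKM in the spinal cord and 114 to 166 FPKM in the thalamus, the 12 fibroblast and meningeal markers to 63.8 to 95.7 and 24.3 to 31.97 FPKM, and the 16 neuron markers to 27.7 to 38.4 and 14.1 to 20.4 FPKM. The 10 Schwann cell markers, which share members with the oligodendrocyte list, summed to 112 to 123 and 46.6 to 66.8 FPKM, with 2 of 3 tested called higher. The 12 macrophage and blood markers lay the other way, at 3.07 to 5.602 and 7.54 to 8.96 FPKM, with Cd3e and S100a9 at 0 in all 8 libraries. The 10 choroid plexus markers summed to 10.8 to 13.4 and 39.8 to 63.2 FPKM. Otx2 is 1 of those 10, and by its levels given below it made up most of the mean thalamus sum. This gap is thus largely that of Otx2 itself and not of the list. Of 3 tested, 1 was called higher in the spinal cord and 1, Otx2, lower. Microglia markers summed to 20.7 to 30.2 FPKM in the spinal cord and 24.7 to 35.9 FPKM in the thalamus, with 0 of 7 tested called by limma (3 at an unadjusted p under 0.05). The part of these cell types in the results below was not tested.

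Positional genes, transporters, receptors and metabolic genes differed widely between the regions. Of 14543 features tested, 3253 (22.4%) were called: 1878 (12.9%) were higher in the spinal cord and 1375 (9.45%) were lower. The change was at least 2-fold on the log2(FPKM + 1) scale for 486 of the higher and 349 of the lower features, at least 4-fold for 101 and 56, and at least 8-fold for 40 and 27. Every spinal cord library lay above or below every thalamus library in 4595 features (31.6%). The split between directions depended on the scale of the libraries. The median log2 fold change of all tested features was 0.01; with each library rescaled to the same sum over genes outside the mitochondrial genome, it shifted by -0.12, and 1267 features were called higher and 1906 lower. Leaving out any single mouse, with the same features tested, left 693 to 1379 features called, and the lowest number was without mouse 3. A fit over all 16 libraries called 1026 features, and testing every feature with a value above 0 in any library called 1939. A mouse fewer leaves fewer degrees of freedom by construction. Among protein-coding genes called, 26 averaged 5 FPKM or more in the spinal cord and under 0.5 FPKM in the thalamus, and 13 of these were Hox genes; 8 ran the other way, among them Otx2, Nr2e1, Six3, Scel, Ptprn2 and Cacng5. Below, levels are means ± SD over the 4 mice with the spinal cord first, values by library are in the order of mice 1 to 4, and fold changes are log2(FPKM + 1) differences, spinal cord minus thalamus, ± SE. Counts with 1 mouse left out use the same features throughout. In each gene whose values are given by library, other than Il33, the 2 groups did not overlap. The 32 gene lists are described by their counts beside 12.9% called higher and 9.45% called lower among all features. Outside the 3 lists of patterning genes, 20 of 736 tested members, at most 3 in a list, passed the filter through 1 region alone and so had to differ. The same held for Enpep, Lphn2, Scel, Ptprn2 and Six3os1, which are in no list. In the lists it also held for Otx2, Nr2e1, Six3, Wnt8b, Nkx6-1, Msx1, Zic2, Anxa2, Slc38a1, Cacng5, Sema5b, Dcc, Rspo1, Cxcr4 and Ccnd1. The calls and adjusted p of all these genes add nothing to their levels.

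**Figure D1:**
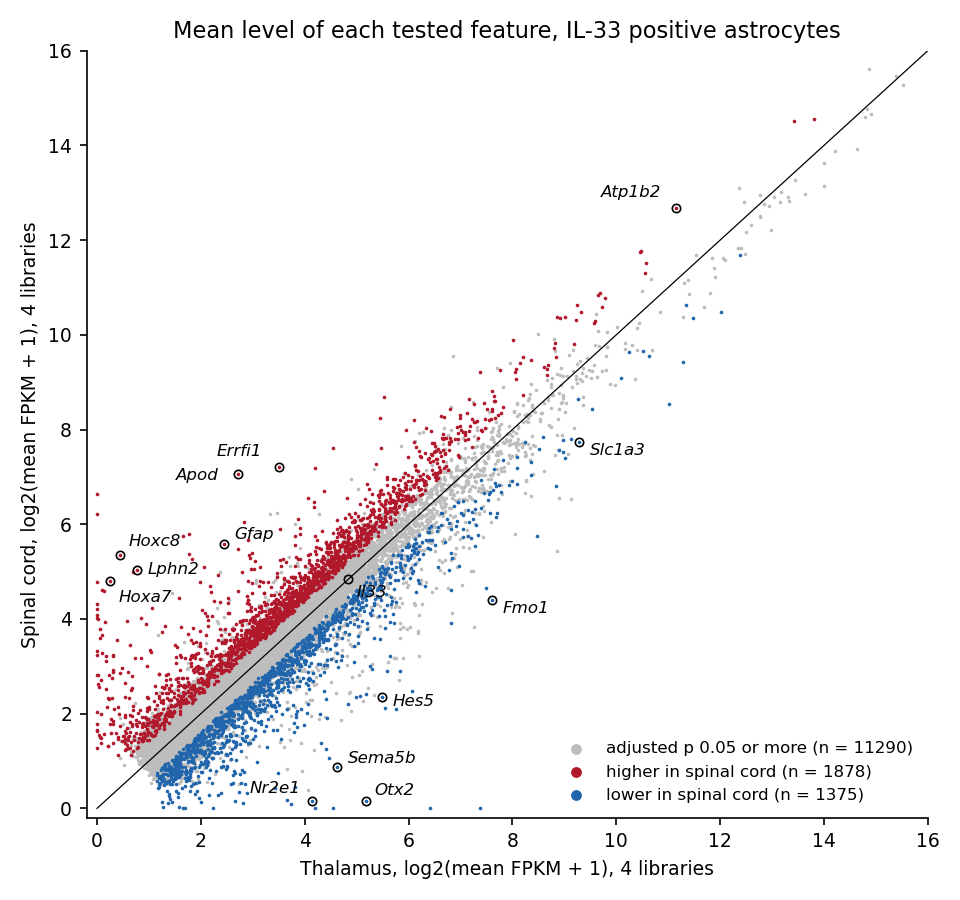
Mean level of each tested feature in the 4 spinal cord libraries (vertical axis) against the 4 thalamus libraries (horizontal axis), both as log2(mean FPKM + 1), with the line of equality. Red points were called higher in the spinal cord (1878) and blue points lower (1375); Hox genes lie along the left edge and Otx2 and Nr2e1 along the bottom, and Il33 lies on the line.

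Hox genes were on in the spinal cord and close to absent in the thalamus. The 38 Hox genes in the table summed to 222.7 to 235.8 FPKM in the 4 spinal cord libraries and to 5.98 to 8.10 FPKM in the 4 thalamus libraries. Each of the 38 had a higher mean in the spinal cord, and 3 reached a mean of 1 FPKM in the thalamus. Of 39 listed genes 23 passed the filter on low values; 20 of these reached 1 FPKM in no thalamus library and passed through the spinal cord alone, so their calls add nothing to the levels. The 3 that reached it in both regions were called higher too: Hoxa3 at 5.51 against 1.52 FPKM, Hoxb3 at 2.53 against 1.04 FPKM and Hoxc9 at 4.39 against 1.52 FPKM.

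Hoxc8, a trunk-level member of the C cluster (chr15:102990607-102994111, GRCm38), had the highest Hox level, at 38.1, 34.5, 48.1 and 39.5 FPKM in the spinal cord and 0.3196, 0.2804, 0.362 and 0.505 FPKM in the thalamus. The groups did not overlap (log2 fold change 4.90 ± 0.11 (SE), adjusted p = 0.000544). Hoxa7 lay at 27.9, 26.2, 28.1 and 25.2 FPKM in the spinal cord and 0.208, 0.168, 0 and 0.402 FPKM in the thalamus. It overlaps the antisense gene Hoxaas3, and without strand information their reads cannot be told apart. Hoxd8 lay at 24.1, 26.7, 20.3 and 22.7 FPKM in the spinal cord and 0.0751, 0.0309, 0.0581 and 0.135 FPKM in the thalamus. Each of these genes was higher in the spinal cord of all 4 mice, and the spread between mice was small beside the gap between regions. Hoxc6, Hoxb6 and Hoxc10 had spinal cord means of 15.004, 14.2 and 12.9 FPKM, and their thalamus means were 0.0185, 0.112 and 0.0391 FPKM. Hoxa5 and Hoxa9 followed at 11.7 and 11.03 FPKM.

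By position in the clusters, the 18 genes of paralog groups 5 to 10 summed to 193.1 FPKM in the mean spinal cord library, the 11 genes of groups 1 to 4 to 26.4 FPKM and the 9 genes of groups 11 to 13 to 9.25 FPKM. Low numbers mark the head end of the Hox-expressing axis and high numbers its tail end. All 9 genes of groups 11 to 13 missed the filter. Among them Hoxc12 lay at 0.814, 3.85, 10.9 and 6.73 FPKM in mice 1 to 4, and it was listed at 0 in every thalamus library. By cluster, the C genes on chromosome 15 summed to 87.7 FPKM, the A genes on chromosome 6 to 73.4, the B genes on chromosome 11 to 38.3 and the D genes on chromosome 2 to 29.3 FPKM in the spinal cord, where Hoxd8 alone gave 23.5.

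**Figure D2:**
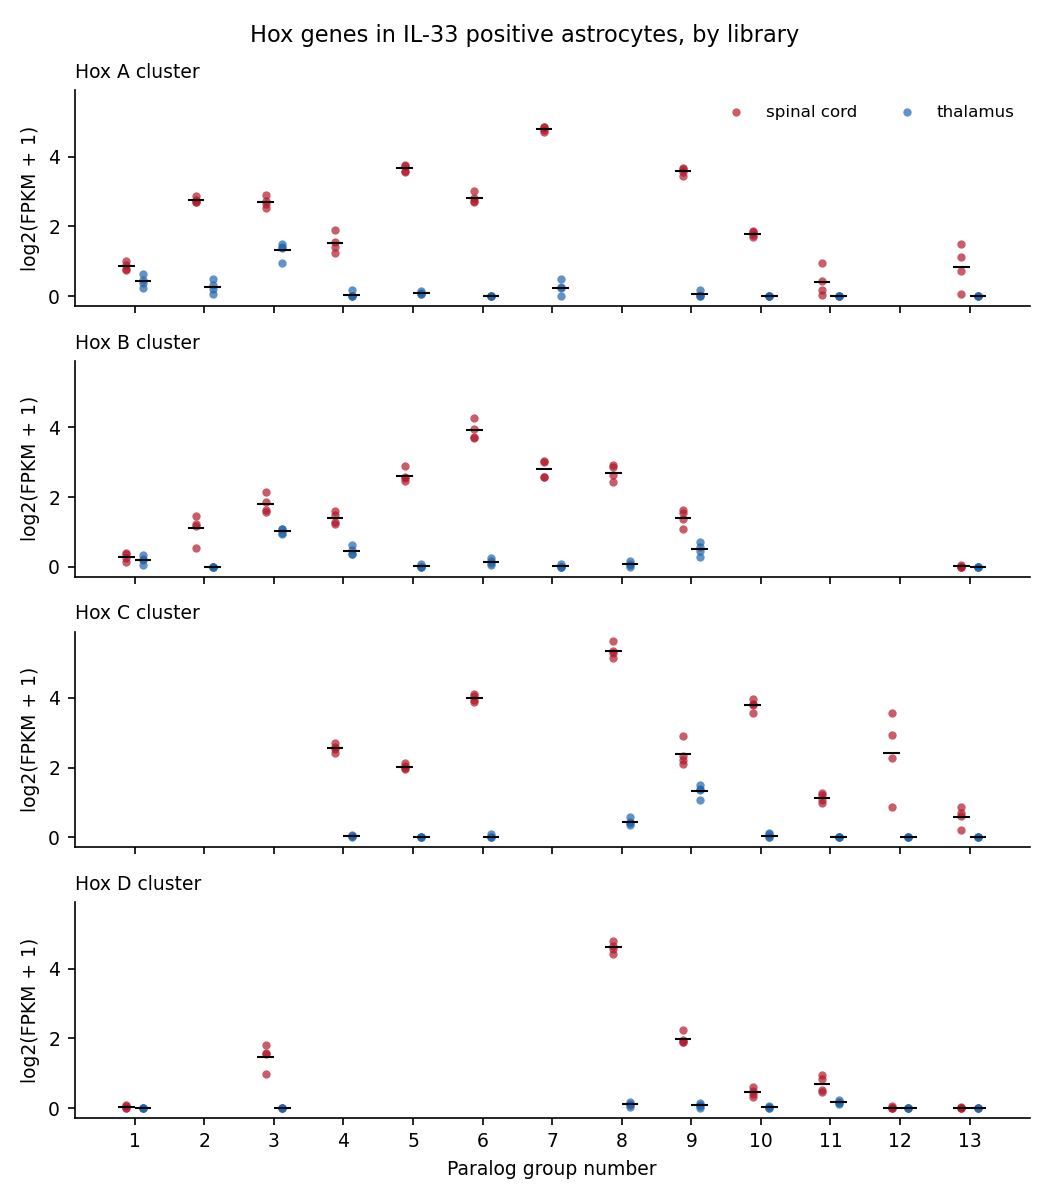
FPKM of each Hox gene in the 4 libraries of a region, as log2(FPKM + 1), against paralog group number, with 1 panel per cluster and the mean of each group as a black line. Spinal cord points (red) peak between groups 5 and 10 in each cluster, and thalamus points (blue) average under 1 FPKM apart from Hoxa3, Hoxb3 and Hoxc9.

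The promoters of Hoxa7 and Hoxd8, which were on in the spinal cord and of Otx2 and Nr2e1, which were on in the thalamus, are shown because these genes were on in 1 region and near 0 in the other. Each window runs from 250 bases before to 50 bases after a RefSeq start site, 5′ to 3′ on the gene's strand, in build GRCm38.p6.
Hoxa7 (chr6:52218524-52218823, minus strand): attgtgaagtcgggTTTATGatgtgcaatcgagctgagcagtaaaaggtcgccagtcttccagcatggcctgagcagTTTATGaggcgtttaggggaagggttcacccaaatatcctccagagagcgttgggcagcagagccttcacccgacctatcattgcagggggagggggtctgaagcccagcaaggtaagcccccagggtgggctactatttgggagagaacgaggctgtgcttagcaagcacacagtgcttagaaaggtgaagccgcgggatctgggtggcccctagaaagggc
Hoxd8 (chr2:74704365-74704664, plus strand): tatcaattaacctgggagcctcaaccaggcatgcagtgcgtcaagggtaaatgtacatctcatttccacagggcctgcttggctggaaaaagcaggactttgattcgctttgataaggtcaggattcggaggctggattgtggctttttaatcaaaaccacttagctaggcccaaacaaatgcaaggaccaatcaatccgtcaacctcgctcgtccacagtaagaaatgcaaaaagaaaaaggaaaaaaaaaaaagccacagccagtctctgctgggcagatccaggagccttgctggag
Otx2 (chr14:48667595-48667894, minus strand): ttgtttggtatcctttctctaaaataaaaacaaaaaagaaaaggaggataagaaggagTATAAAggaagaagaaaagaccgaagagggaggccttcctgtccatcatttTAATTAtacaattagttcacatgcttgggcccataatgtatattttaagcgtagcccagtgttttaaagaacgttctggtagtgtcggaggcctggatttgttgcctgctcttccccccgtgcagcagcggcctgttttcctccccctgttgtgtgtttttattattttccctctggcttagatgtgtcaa
Nr2e1 (chr10:42583541-42583840, minus strand): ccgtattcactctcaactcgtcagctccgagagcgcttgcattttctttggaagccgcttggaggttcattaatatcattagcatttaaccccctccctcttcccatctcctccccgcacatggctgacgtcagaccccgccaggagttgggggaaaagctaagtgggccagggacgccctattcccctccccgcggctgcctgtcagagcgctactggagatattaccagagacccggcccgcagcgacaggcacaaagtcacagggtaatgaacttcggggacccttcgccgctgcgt
Capitals mark matches on either strand to 4 motifs that do not overlap here: TATAAA, the TATA box; TAATTA, a homeodomain core; TAATCC, the core bound by OTX proteins; and TTTATG, bound by the caudal proteins. Hoxa7 holds 2 matches to TTTATG, Otx2 holds 1 to TATAAA and 1 to TAATTA, and Hoxd8 and Nr2e1 hold none of the 4. Among 27025 RefSeq promoter windows of the same length, 1 per gene, 12.1% hold TTTATG, 14.2% TATAAA, 5.31% TAATTA and 7.16% TAATCC. CG dinucleotides number 9, 6, 6 and 19 in the order printed, against a median of 7. Otx2 has 4 RefSeq windows, and the one nearest the 5′ end of the annotated gene is printed. The Otx2 and Hoxa7 windows still lie inside the annotated genes, away from their 5′ ends. A match describes letters in the window and not a bound site, and the TTTATG motif was added after the sequences were read.

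Hox cofactors followed only in part. Meis2, a partner homeodomain protein of Hox factors, lay at 42.1, 28.04, 21.7 and 37.8 FPKM in the spinal cord and 6.68, 5.87, 9.56 and 5.13 FPKM in the thalamus, which left the groups apart (log2 fold change 2.08 ± 0.28 (SE), adjusted p = 0.0125). Meis1 was level, at 23.7 ± 1.59 against 22.6 ± 1.49 FPKM (SD, n = 4; log2 fold change 0.07 ± 0.08 (SE), adjusted p = 0.568). Of 8 tested among 12 cofactors and caudal genes, 2 were called higher and 1 lower (0 to 1 and 0 to 1 with 1 mouse left out). The call was lost for Meis2 without mouse 1, 2 or 4 (highest adjusted p 0.0519).

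Factors of the forebrain and midbrain ran the other way. Of 39 listed, 15 passed the filter, 10 were called lower in the spinal cord and 1 higher; 5 of the 15 reached 1 FPKM in no spinal cord library and 1 in no thalamus library, and so passed through 1 region alone. With 1 mouse left out 9 to 10 were called lower. Otx2, a homeobox gene that specifies anterior brain (chr14:48657677-48673819), lay at 0.254, 0.152, 0.0381 and 0.0259 FPKM in the spinal cord and 35.2, 40.8, 31.1 and 33.9 FPKM in the thalamus. No spinal cord library came near the thalamus range (log2 fold change -5.02 ± 0.10 (SE), adjusted p = 0.000544). Otx2 passed the filter through the thalamus alone, so its call adds nothing to the levels. The choroid plexus also expresses Otx2. Ttr, its secretory product, was picked from 10 choroid plexus markers after its value was seen. The Ttr mean was 0.162 FPKM in the spinal cord and 5.898 FPKM in the thalamus libraries. Of 3 choroid plexus markers tested, 1 was called higher in the spinal cord and 1, Otx2, lower. The part of choroid RNA in the Otx2 level was not tested.

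Nr2e1, the orphan nuclear receptor Tlx of forebrain neural stem cells (chr10:42561963-42583632), lay at 0.181, 0.0564, 0.116 and 0.0693 FPKM in the spinal cord and 18.2, 16.4, 15.998 and 15.9 FPKM in the thalamus. The 4 thalamus libraries were close to each other and far from the spinal cord (log2 fold change -3.99 ± 0.09 (SE), adjusted p = 0.000544). Nr2e1 too passed the filter through the thalamus alone. Six3, a forebrain and eye homeobox gene, lay at 0.478, 0.386, 0.171 and 0.408 FPKM in the spinal cord and 7.14, 21.7, 12.4 and 11.4 FPKM in the thalamus, where mouse 2 was the highest. Its antisense transcript Six3os1 had 0.346 ± 0.128 against 9.83 ± 3.65 FPKM (SD, n = 4), and reads of the pair cannot be assigned without strand. Nr2f2, an orphan nuclear receptor also called COUP-TFII, had 2.04 ± 0.253 against 12.8 ± 1.77 FPKM (log2 fold change -2.18 ± 0.13 (SE), adjusted p = 0.00226). Wnt8b, a Wnt ligand of the embryonic forebrain, was the 1 member of the list called higher in the spinal cord, at 3.45 ± 0.865 against 0.606 ± 0.235 FPKM (log2 fold change 1.46 ± 0.13 (SE), adjusted p = 0.00479). With a pseudocount of 0.1 in place of 1, the log2 fold changes of the near-absent genes grew, to -7.47 for Otx2, -6.38 for Nr2e1, 7.04 for Hoxc6, 6.11 for Hoxb6, 6.60 for Hoxc10, 7.10 for Hoxd8, -4.45 for Six3os1 and 2.35 for Wnt8b.

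Genes of the dorsoventral axis divided between the regions. Of 24 listed and 16 tested, 4 were called higher in the spinal cord and 6 lower (3 to 4 and 1 to 2 with 1 mouse left out). Nkx6-1, a homeobox gene of the ventral neural tube, lay at 8.68, 7.57, 8.19 and 8.81 FPKM in the spinal cord and 0.173, 0.294, 0 and 0.0221 FPKM in the thalamus, so that it was near 0 in each thalamus library (log2 fold change 3.06 ± 0.13 (SE), adjusted p = 0.00108, or 5.46 with a pseudocount of 0.1). Pax3, a factor of the dorsal neural tube, had 9.66 ± 1.77 against 1.93 ± 0.608 FPKM (log2 fold change 1.88 ± 0.21 (SE), adjusted p = 0.00853). Msx1, likewise dorsal, had 2.44 ± 0.754 against 0.243 ± 0.123 FPKM (1.45 on the log2 scale, or 2.93 with a pseudocount of 0.1). The zinc finger gene Zic2 was lower in the spinal cord, at 0.484 ± 0.316 against 2.28 ± 0.6503 FPKM (log2 fold change -1.15 ± 0.19 (SE), adjusted p = 0.0188), with a difference of -2.19 at a pseudocount of 0.1. Of the 16, 3 passed the filter through the spinal cord alone, Nkx6-1 and Msx1 among them. Through the thalamus alone passed 2, Zic2 among them. Their calls add nothing to the levels. Olig2, a factor of the ventral progenitor domain and of the oligodendrocyte lineage, was not called at 56.8 ± 14.997 against 68.6 ± 23.5 FPKM (adjusted p = 0.137). Leaving out a mouse ended the call of Msx1 without mouse 3 (highest adjusted p 0.0538) and Zic2 without mouse 1, 2 or 4 (highest adjusted p 0.0732). In a fit over all 16 libraries the call was lost for Zic2 (adjusted p = 0.0731).

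Among 31 tested astrocyte transcription factors, 6 were called higher and 6 lower (1 to 4 and 2 to 6 with 1 mouse left out). Hes5, a Notch effector that maintains glial progenitors, lay at 5.16, 4.23, 3.16 and 3.797 FPKM in the spinal cord and 47.04, 46.2, 42.8 and 39.98 FPKM in the thalamus; the lowest thalamus value was far above the highest of the spinal cord (log2 fold change -3.16 ± 0.11 (SE), adjusted p = 0.000726). A predicted gene, Gm20421, overlaps Hes5 on the other strand, and their reads cannot be told apart. Nfix, a nuclear factor I gene of astrocyte differentiation, was higher at 211 ± 25.7 against 88.8 ± 15.2 FPKM (log2 fold change 1.24 ± 0.17), and its relative Nfia was not called at 169.7 ± 10.3 against 154 ± 8.56 FPKM (adjusted p = 0.371). Id3, an inhibitor of basic helix-loop-helix factors, was lower at 58.7 ± 18.4 against 131 ± 23.99 FPKM (log2 fold change -1.18 ± 0.13). Loss of the call was seen for Nfix without mouse 4 (highest adjusted p 0.0521) and Id3 without mouse 3 (highest adjusted p 0.0501).

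Outside the patterning factors, the largest differences included enzymes and receptors of the cell surface. Enpep, the peptidase aminopeptidase A that trims angiotensins (chr3:129269175-129332720), lay at 27.2, 21.3, 15.3 and 28.8 FPKM in the spinal cord and 0.0832, 0.0823, 0.166 and 0.0733 FPKM in the thalamus. The spinal cord libraries varied between mice and stayed far above the thalamus (log2 fold change 4.42 ± 0.19 (SE), adjusted p = 0.00125, or 6.83 with a pseudocount of 0.1). Lphn2, a latrophilin adhesion receptor (chr3:148815583-148990555), lay at 30.7, 34.3, 28.3 and 34.1 FPKM in the spinal cord and 0.603, 0.921, 0.717 and 0.601 FPKM in the thalamus (log2 fold change 4.26 ± 0.10 (SE), adjusted p = 0.000544). Enpep and Lphn2 passed the filter through the spinal cord alone, so their calls add nothing to the levels. Calcrl, the receptor subunit for calcitonin gene-related peptide and adrenomedullin, lay at 34.5, 70.8, 55.8 and 56.7 FPKM in the spinal cord and 1.71, 2.61, 2.76 and 2.55 FPKM in the thalamus. The library of mouse 1 was the lowest of its region for Calcrl in both, and the groups did not overlap (log2 fold change 3.99 ± 0.13 (SE), adjusted p = 0.000629).

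Errfi1, a feedback inhibitor of the EGF receptor, lay at 112, 174, 168 and 136 FPKM in the spinal cord and 9.73, 9.56, 13.5 and 8.58 FPKM in the thalamus (log2 fold change 3.71 ± 0.14 (SE), adjusted p = 0.000905). Every spinal cord library exceeded every thalamus library by far. Apod, apolipoprotein D, a lipid carrier, had 28.3, 137, 174 and 189.6 FPKM in the spinal cord libraries of mice 1 to 4 and 8.19, 5.06, 3.55 and 5.46 FPKM in those of the thalamus, so that mouse 1 was well below the other mice in the spinal cord (log2 fold change 4.08 ± 0.64 (SE), adjusted p = 0.0173). With 3 mice the adjusted p passed 0.05 for Apod without mouse 2, 3 or 4 (highest adjusted p 0.0734). Without mouse 1 the Apod difference was 4.89 (adjusted p = 0.0174).

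On the thalamus side, Sema5b, a semaphorin that guides axons, lay at 0.933, 0.733, 0.938 and 0.744 FPKM in the spinal cord and 20.4, 30.7, 23.2 and 20.4 FPKM in the thalamus (log2 fold change -3.73 ± 0.15 (SE), adjusted p = 0.00101). Gdf10, a TGF-beta family ligand, lay at 1.15, 1.26, 1.05 and 0.895 FPKM in the spinal cord and 15.05, 23.8, 19.2 and 26.7 FPKM in the thalamus (log2 fold change -3.38 ± 0.18 (SE), adjusted p = 0.00164). Both were near 1 FPKM in the spinal cord and well above it in each thalamus library. Sema5b reached 1 FPKM in no spinal cord library and passed the filter through the thalamus alone, so its call adds nothing to the levels. Fmo1, a flavin-containing monooxygenase, was abundant in both regions, at 21.5, 19.4, 16.98 and 22.5 FPKM in the spinal cord and 164, 238, 193 and 183 FPKM in the thalamus (log2 fold change -3.21 ± 0.15 (SE), adjusted p = 0.00135). The thalamus mean of Fmo1 was 9.68 times the spinal cord mean. Scel, which encodes sciellin, had 0.0599 ± 0.0316 against 12.2 ± 2.29 FPKM, and Ptprn2, a phosphatase-like protein of secretory vesicles, 0.2503 ± 0.0793 against 6.45 ± 1.21 FPKM. Both passed the filter through the thalamus alone, so their calls add nothing to the levels. Etnppl, a phospholyase of ethanolamine phosphate enriched in astrocytes, had 4.31 ± 1.15 against 35.3 ± 3.63 FPKM, and Plat, tissue plasminogen activator, 4.18 ± 0.572 against 32.3 ± 2.97 FPKM. These 4 genes were lower in the spinal cord in each mouse (log2 fold changes -3.63, -2.56, -2.79 and -2.69, adjusted p at most 0.00221; Scel and Ptprn2 at -6.27 and -4.24 with a pseudocount of 0.1).

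**Figure D3:**
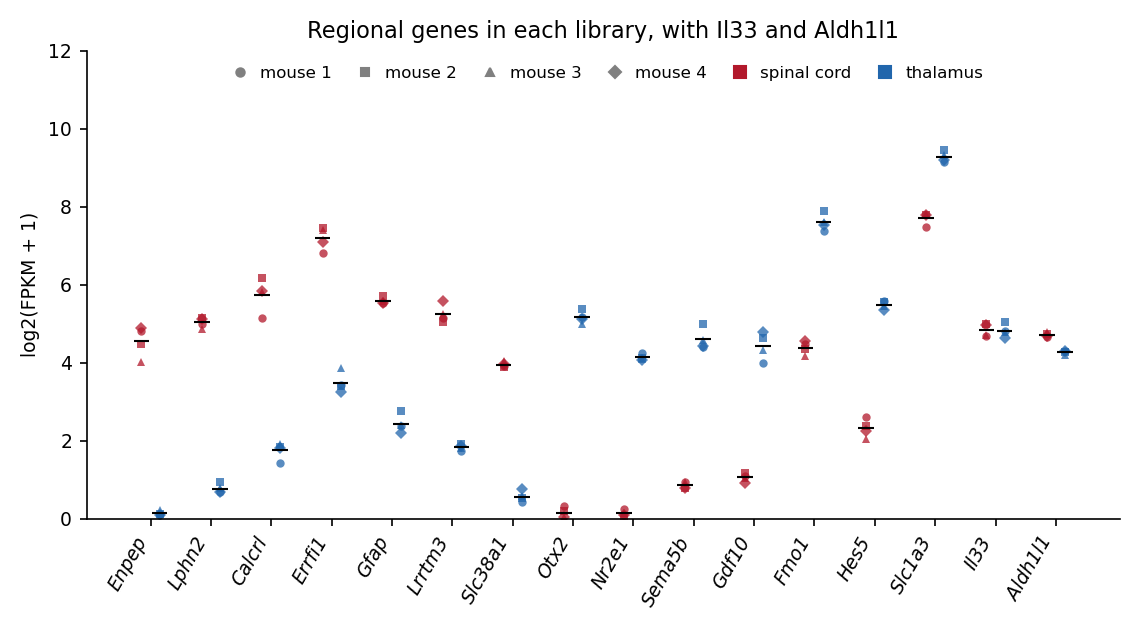
Level of 16 genes in each library as log2(FPKM + 1), with spinal cord in red, thalamus in blue, a symbol for each mouse and the group mean as a black line. The 7 genes at the left are higher in every spinal cord library, the next 7 are higher in every thalamus library, and the Il33 points of both regions overlap.

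No difference was detected in Il33 itself. It lay at 24.6, 31.2, 25.1 and 30.6 FPKM in the spinal cord and 27.4, 31.98, 26.6 and 23.8 FPKM in the thalamus; the ranges overlapped, and the difference of 0.02 ± 0.12 (SE) was not called (adjusted p = 0.9098). Without mouse 4 the difference was -0.09, and with sums outside the mitochondrial genome made equal it was -0.11. Both groups were sorted as positive for a reporter of IL-33. The comparison therefore does not show whether Il33 differs between all astrocytes of the regions. Aldh1l1, the folate enzyme after which the GFP reporter is named, lay at 24.2, 25.8, 26.7 and 24.9 FPKM in the spinal cord and 18.7, 18.4, 17.5 and 18.8 FPKM in the thalamus. Every spinal cord library was above every thalamus library, by 0.45 ± 0.09 (SE) on the log2 scale (adjusted p = 0.0283). That call was lost without mouse 1, 2, 3 or 4 (highest adjusted p 0.11004), in a fit over all 16 libraries (adjusted p = 0.316) and with the sums outside the mitochondrial genome made equal (adjusted p = 0.0646).

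General astrocyte genes were mostly higher in the spinal cord. Of 25 listed and tested, 19 were called higher and 3 lower, with a median log2 fold change of 0.63 against 0.01 over all features; each of the 25 reached 1 FPKM in both regions. The number called higher was 6 to 11 with 1 mouse left out and 14 with the sums outside the mitochondrial genome made equal. Atp1b2, the beta subunit of the glial sodium pump, lay at 6037, 6989, 7108 and 6210.5 FPKM in the spinal cord and 2713, 2055, 2216 and 2087 FPKM in the thalamus. The spinal cord mean was 2.904 times the thalamus mean (log2 fold change 1.54 ± 0.16 (SE), adjusted p = 0.00731). Aldoc, an aldolase of astrocytes, had 1321 ± 190.2 against 461 ± 79.8 FPKM (log2 fold change 1.52 ± 0.11), and Aqp4, the water channel of astrocyte endfeet, 1579 ± 74.1 against 606 ± 102 FPKM (1.39 ± 0.14). The abundant genes Cst3, a cysteine protease inhibitor, and Ndrg2 had 3422 ± 398 against 1402 ± 265 FPKM and 1887 ± 130.4 against 823 ± 68.4 FPKM, and Cd81, a tetraspanin, had 1832 ± 169 against 805 ± 229 FPKM (adjusted p = 0.0269). The call was lost for Cd81 without mouse 1, 3 or 4 (highest adjusted p 0.101). Slc1a3, the glutamate transporter GLAST, ran against this pattern, at 179, 219.8, 226 and 220.2 FPKM in the spinal cord and 564, 701, 645 and 585 FPKM in the thalamus. The thalamus mean was 2.96 times that of the spinal cord (log2 fold change -1.56 ± 0.10 (SE), adjusted p = 0.00278). Ptprz1, a receptor phosphatase that binds tenascins, was lower in the spinal cord at 218 ± 15.2 against 501 ± 73.1 FPKM (-1.19 ± 0.13), as were Slc7a11, the cystine-glutamate exchanger, at 19.995 ± 1.01 against 43.5 ± 6.91 FPKM (-1.07 ± 0.12) and Fam107a at 74.8 ± 16.1 against 206 ± 86.1 FPKM (-1.40 ± 0.31). Leaving out a mouse ended the call of Fam107a without mouse 1, 2 or 3 (highest adjusted p 0.103). Glul, glutamine synthetase, was not called at 629 ± 93.5 against 488 ± 52.7 FPKM (adjusted p = 0.0806).

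Genes typical of fibrous, white matter astrocytes and of protoplasmic, gray matter astrocytes each moved in both directions. Of 14 tested fibrous and filament genes (20 listed), 6 were called higher and 2 lower, and of 15 tested protoplasmic genes (16 listed), 5 and 4 (1 to 4 and 1, and 3 to 5 and 2 to 3, with 1 mouse left out). Gfap, the intermediate filament that marks fibrous and reactive astrocytes, lay at 45.3, 51.2, 47.2 and 45.3 FPKM in the spinal cord and 4.21, 5.799, 4.25 and 3.59 FPKM in the thalamus. Its spinal cord mean was 10.6 times the thalamus mean, with no overlap (log2 fold change 3.16 ± 0.10 (SE), adjusted p = 0.000629). S100a10 and Anxa2, which form a membrane-bound complex, had 11.7 ± 4.13 against 3.27 ± 2.25 FPKM and 3.05 ± 0.473 against 0.723 ± 0.208 FPKM (log2 fold changes 1.73 ± 0.22 and 1.23 ± 0.15, the latter 1.96 with a pseudocount of 0.1). Tnc, the matrix protein tenascin C, was lower in the spinal cord at 4.704 ± 0.368 against 15.8 ± 1.597 FPKM (-1.56 ± 0.10). Loss of the call was seen for S100a10 without mouse 3 (highest adjusted p 0.0572) and Anxa2 without mouse 3 (highest adjusted p 0.0538). The fit over all 16 libraries ended the call of S100a10 (adjusted p = 0.172). Among the protoplasmic genes, Slc7a10, a transporter of D-serine and glycine, had 735 ± 86.7 against 293 ± 63.2 FPKM (log2 fold change 1.34 ± 0.12 (SE), adjusted p = 0.00508), and the potassium channel gene Kcnj10 had 704 ± 57.4 against 327 ± 40.3 FPKM (1.11 ± 0.14). Itih3, a hyaluronan-binding inhibitor chain, was also higher, at 121 ± 11.3 against 56.3 ± 6.54 FPKM (1.09 ± 0.11). Mfge8, a bridging protein of phagocytosis, and Grm3, a metabotropic glutamate receptor, were lower, at 14.2 ± 3.12 against 51.6 ± 7.74 FPKM and 12.98 ± 1.53 against 45.9 ± 3.55 FPKM (-1.80 ± 0.17 and -1.75 ± 0.08). Slc6a11, the GABA transporter GAT3, was not called at 1075 ± 113 against 801 ± 169.9 FPKM (adjusted p = 0.1499). With 3 mice the adjusted p passed 0.05 for Kcnj10 without mouse 3 (highest adjusted p 0.0591).

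Amino acid transporters were higher in the spinal cord more often than lower. Of 26 tested among 33 transporters and enzymes, 13 were called higher and 1 lower (3 to 9 and 0 with 1 mouse left out). Slc38a1, a sodium-coupled glutamine carrier, lay at 14.1, 13.8, 15.6 and 14.6 FPKM in the spinal cord and 0.345, 0.437, 0.496 and 0.684 FPKM in the thalamus. It was below 1 FPKM in each thalamus library and steady in the spinal cord (log2 fold change 3.38 ± 0.10 (SE), adjusted p = 0.000575). Slc38a1 thus passed the filter through the spinal cord alone, and its call adds nothing to the levels. Slc7a5, the large neutral amino acid carrier LAT1, lay at 267, 359, 308 and 233 FPKM in the spinal cord and 84.6, 47.03, 75.6 and 62.7 FPKM in the thalamus (log2 fold change 2.11 ± 0.23 (SE), adjusted p = 0.00765). Slc7a2, a cationic amino acid carrier, had 93.6 ± 7.24 against 27.3 ± 4.69 FPKM (1.75 ± 0.16).

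Receptor genes differed in opposite directions between subunits of 1 receptor family. Of 14 tested glutamate receptor genes (23 listed), 4 were called higher in the spinal cord and 6 lower (1 and 3 to 4 with 1 mouse left out). Gria4, an AMPA receptor subunit, lay at 36.1, 42.7, 43.03 and 39.2 FPKM in the spinal cord and 3.35, 2.09, 1.696 and 2.501 FPKM in the thalamus (log2 fold change 3.62 ± 0.18 (SE), adjusted p = 0.00142). Gria2, the subunit that limits calcium entry, lay at 21.2, 17.8, 18.4 and 20.6 FPKM in the spinal cord and 43.5, 63.96, 52.3 and 51.6 FPKM in the thalamus (log2 fold change -1.38 ± 0.15 (SE), adjusted p = 0.00755). The spinal cord libraries were thus all higher for one AMPA subunit and all lower for the other. Grin2b, an NMDA receptor subunit, was lower at 2.89 ± 0.615 against 9.19 ± 1.49 FPKM (-1.39 ± 0.10). Of 10 tested GABA and glycine receptor genes (20 listed), 3 were called higher and 4 lower (2 and 2 to 3 with 1 mouse left out). The alpha subunit genes Gabra2 and Gabra4 were higher, at 37.2 ± 2.22 against 10.4 ± 2.17 FPKM and 17.1 ± 1.105 against 6.81 ± 0.445 FPKM (1.75 ± 0.15 and 1.21 ± 0.09), and the beta subunit gene Gabrb2 was lower at 0.763 ± 0.319 against 5.88 ± 0.873 FPKM (-1.97 ± 0.18). Glrb, the glycine receptor beta subunit, and Gabbr1, a metabotropic GABA receptor subunit, were lower at 5.697 ± 1.84 against 16.02 ± 3.03 FPKM and 112 ± 6.16 against 214 ± 16.3 FPKM (-1.37 ± 0.22 and -0.92 ± 0.10). The call was lost for Glrb without mouse 1, 2 or 4 (highest adjusted p 0.06696). Neurons express most of these subunits. The neuron markers had 4 of 5 tested called higher and summed to 27.7 to 38.4 FPKM in the spinal cord and 14.1 to 20.4 FPKM in the thalamus; their part in these results was not tested.

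Of 21 tested neuromodulator, purine and peptide receptors (47 listed), 5 were called higher and 3 lower (2 to 4 and 1 with 1 mouse left out). P2ry1, the ADP receptor that triggers calcium signals in astrocytes, lay at 40.3, 44.1, 39.1 and 41.3 FPKM in the spinal cord and 8.76, 6.55, 6.54 and 5.62 FPKM in the thalamus (log2 fold change 2.44 ± 0.13 (SE), adjusted p = 0.00166). Its spinal cord mean was 5.997 times that of the thalamus. Adra1b, an alpha-1 adrenergic receptor, had 9.35 ± 1.12 against 3.25 ± 1.07 FPKM (1.31 ± 0.12). Of 27 tested channels and pumps (39 listed), 8 were called higher and 7 lower (5 to 6 and 1 to 4 with 1 mouse left out). Kcnj16, an inward rectifier that joins Kcnj10 in glial channels, and Kcnk1, a leak channel of astrocytes, had 213 ± 20.7 against 68.2 ± 10.2 FPKM and 345 ± 65.6 against 110.4 ± 16.3 FPKM (1.64 ± 0.14 and 1.63 ± 0.15). Itpr1, a calcium release channel, was higher at 8.08 ± 0.4995 against 2.72 ± 0.453 FPKM (1.30 ± 0.11). Cacng5, an auxiliary protein of AMPA receptors, and Cacna1a, a calcium channel pore, were lower at 0.435 ± 0.107 against 6.19 ± 2.296 FPKM and 5.61 ± 1.52 against 16.1 ± 3.78 FPKM (-2.28 ± 0.23, or -3.51 with a pseudocount of 0.1, and -1.37 ± 0.17). Leaving out a mouse ended the call of Cacna1a without mouse 3 (highest adjusted p 0.0569).

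Axon guidance genes moved both ways. Of 38 tested (64 listed), 10 were called higher in the spinal cord and 13 lower, against 4 to 5 and 3 to 7 with 1 mouse left out and 5 and 15 with the sums outside the mitochondrial genome made equal. Robo2, a Slit receptor, lay at 25.4, 21.98, 20.4 and 15.8 FPKM in the spinal cord and 1.61, 2.28, 1.51 and 2.52 FPKM in the thalamus (log2 fold change 2.87 ± 0.20 (SE), adjusted p = 0.00319). The ephrin receptor genes Epha4 and Epha7 were higher, at 16.5 ± 0.741 against 4.74 ± 1.298 FPKM and 8.15 ± 0.389 against 2.05 ± 0.146 FPKM (1.63 ± 0.13 and 1.58 ± 0.09). Dcc, the netrin receptor, was lower at 0.2603 ± 0.123 against 4.22 ± 0.678 FPKM (-2.04 ± 0.15, or -3.63 with a pseudocount of 0.1), as was the semaphorin receptor gene Plxnc1 at 1.03 ± 0.406 against 5.401 ± 1.56 FPKM (-1.64 ± 0.22). Loss of the call was seen for Plxnc1 without mouse 1 or 3 (highest adjusted p 0.0513).

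Of 36 tested synapse-inducing and perisynaptic genes (47 listed), 10 were called higher and 6 lower (5 to 8 and 1 to 3 with 1 mouse left out). Lrrtm3, a leucine-rich repeat adhesion protein of synapses, lay at 34.5, 32.2, 37.1 and 47.2 FPKM in the spinal cord and 2.35, 2.75, 2.51 and 2.64 FPKM in the thalamus. Thalamus libraries were tightly grouped and low (log2 fold change 3.43 ± 0.12 (SE), adjusted p = 0.000836). Cntn1, the adhesion protein contactin 1, had 58.9 ± 3.13 against 10.4 ± 1.99 FPKM (2.40 ± 0.11), and Gas6, a ligand of TAM phagocytic receptors, 13.2 ± 0.852 against 2.07 ± 0.628 FPKM (2.23 ± 0.16). Ncam2, a neural adhesion molecule, was lower at 14.3 ± 1.48 against 48.6 ± 4.902 FPKM (-1.69 ± 0.11).

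Matrix genes were more often higher in the spinal cord: of 53 tested (78 listed), 22 were called higher and 5 lower, with a median log2 fold change of 0.37 against 0.01 over all features. With 1 mouse left out, 11 to 14 were called higher and 3 to 5 lower. Fbln1, the secreted glycoprotein fibulin 1, lay at 16.1, 24.5, 19.6 and 16.4 FPKM in the spinal cord and 3.797, 4.49, 3.97 and 6.85 FPKM in the thalamus (log2 fold change 1.81 ± 0.20 (SE), adjusted p = 0.00794). The collagen genes Col16a1 and Col1a1 had 22.5 ± 3.25 against 6.91 ± 1.63 FPKM and 7.86 ± 1.31 against 2.46 ± 0.229 FPKM (1.58 ± 0.14 and 1.34 ± 0.13). Lama2, a laminin chain of basement membranes, was lower at 5.81 ± 0.423 against 13.5 ± 1.19 FPKM (-1.09 ± 0.08). The fit over all 16 libraries ended the call of Col16a1 (adjusted p = 0.0902) and Col1a1 (adjusted p = 0.0507). Fibroblast markers moved with this list. Col1a1 and Fbln1 are markers of fibroblasts too, 4 of 5 tested fibroblast and meningeal markers were called higher, and Dcn, decorin, had a mean of 6.59 FPKM in the spinal cord and 0.233 FPKM in the thalamus. The part of these cells in the matrix result was not tested.

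Signalling genes gave single large differences. Of 21 tested BMP and TGF-beta genes (38 listed), 9 were called higher and 3 lower (3 to 4 and 1 with 1 mouse left out, and 5 and 4 with the sums outside the mitochondrial genome made equal). Inhba, the beta A subunit of activin, lay at 62.8, 48.2, 46.4 and 53.9 FPKM in the spinal cord and 17.003, 10.7, 8.73 and 15.96 FPKM in the thalamus (log2 fold change 1.97 ± 0.13 (SE), adjusted p = 0.00278), and Ltbp3, a binding protein of latent TGF-beta, had 14.4 ± 1.15 against 5.75 ± 0.424 FPKM (1.19 ± 0.10). Of 31 tested Wnt genes (43 listed), 3 were called higher and 8 lower (1 to 2 and 5 to 7 with 1 mouse left out). The receptor genes Ror2 and Fzd1 were higher, at 8.39 ± 1.33 against 2.01 ± 0.851 FPKM and 172 ± 22.9 against 74.03 ± 12.2 FPKM (1.67 ± 0.21 and 1.21 ± 0.09), while the receptor gene Fzd10 and Rspo1, a secreted enhancer of Wnt signalling, were lower at 4.59 ± 0.363 against 19.8 ± 6.09 FPKM and 0.216 ± 0.134 against 3.49 ± 0.809 FPKM (-1.85 ± 0.20 and -1.87 ± 0.17, the latter -3.57 with a pseudocount of 0.1). The ligand gene Wnt7a was not called at 184 ± 24.7 against 172 ± 53.5 FPKM (adjusted p = 0.516). With 3 mice the adjusted p passed 0.05 for Ror2 without mouse 3 (highest adjusted p 0.05698).

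Of 18 tested Notch and hedgehog genes (26 listed), 4 were called higher and 2 lower (1 to 2 and 1 with 1 mouse left out). Boc, a hedgehog co-receptor, had 28.7 ± 3.32 against 9.997 ± 1.22 FPKM (1.43 ± 0.15), while Ptch1, the hedgehog receptor and target, was not called at 90.4 ± 6.73 against 89.4 ± 18.9 FPKM (adjusted p = 0.872). Of 14 tested retinoid and thyroid hormone genes (25 listed), 4 were called higher and 1 lower (0 to 1 and 1 with 1 mouse left out). The 1 was Dhrs3, a reductase that lowers retinaldehyde, at 10.8, 14.02, 9.97 and 9.13 FPKM in the spinal cord and 50.02, 43.04, 38.1 and 38.7 FPKM in the thalamus (log2 fold change -1.87 ± 0.12 (SE), adjusted p = 0.00274). Dio2, which activates thyroid hormone, was not called at 106 ± 20.4 against 100.3 ± 25.1 FPKM (adjusted p = 0.654).

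Among immune signalling genes, of 22 tested cytokine, chemokine and complement genes (38 listed), 1 was called higher and 3 lower (1 and 2 with 1 mouse left out). The 1 was the chemokine gene Cxcl14, at 108 ± 14.9 against 51.8 ± 8.69 FPKM (1.06 ± 0.10). The chemokine receptor gene Cxcr4 was lower at 0.564 ± 0.189 against 3.43 ± 0.906 FPKM (-1.49 ± 0.14, or -2.41 with a pseudocount of 0.1). Il18, a cytokine of the same family as IL-33, lay at 48.6, 59.3, 40.9 and 49.5 FPKM in the spinal cord and 74.7, 128, 67.1 and 68.4 FPKM in the thalamus, with the thalamus library of mouse 2 far above the rest (log2 fold change -0.72 ± 0.13 (SE), adjusted p = 0.0243). Il15ra, the IL-15 receptor alpha chain, was not called at 57.4 ± 7.63 against 41.3 ± 13.8 FPKM (adjusted p = 0.1801). The call was lost for Il18 without mouse 1, 2, 3 or 4 (highest adjusted p 0.0941). The fit over all 16 libraries ended the call of Il18 (adjusted p = 0.0877). Of 15 tested interferon response and MHC class I genes (29 listed), 4 were called higher and 0 lower by limma (1 lower at an unadjusted p under 0.05, and 3 to 4 called higher with 1 mouse left out). B2m, the invariant chain of MHC class I, lay at 322, 315, 317 and 285 FPKM in the spinal cord and 123, 94.3, 94.7 and 79.7 FPKM in the thalamus (log2 fold change 1.67 ± 0.11 (SE), adjusted p = 0.00306), and H2-K1, an MHC class I heavy chain, had 33.6 ± 4.71 against 10.6 ± 0.923 FPKM (1.57 ± 0.11).

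Nuclear genes of the respiratory chain were higher in the spinal cord almost throughout. Of 50 listed and tested, 43 were called higher and 0 lower by limma (0 lower at an unadjusted p under 0.05), against 12.9% and 9.45% of all features, with a median log2 fold change of 0.96 against 0.01. Each reached 1 FPKM in both regions, and in 44 every spinal cord library was above every thalamus library. Among all features the groups did not overlap in 31.6%, counting both directions. A fit over all 16 libraries called 26 of the 50 higher and 0 lower. With 1 mouse left out 17 to 35 were called higher, with the fewest without mouse 3, and with the sums outside the mitochondrial genome made equal 37 were, at a median of 0.82. Atp5b, the catalytic beta subunit of ATP synthase, lay at 3519.6, 3772, 3426 and 3227 FPKM in the spinal cord and 1552, 1414, 1387 and 1359.5 FPKM in the thalamus (log2 fold change 1.29 ± 0.12 (SE), adjusted p = 0.005602). Ndufa4, a small respiratory chain subunit, lay at 197, 186, 198 and 163 FPKM in the spinal cord and 82.7, 70.6, 65.9 and 70.7 FPKM in the thalamus (log2 fold change 1.35 ± 0.11 (SE), adjusted p = 0.00381). Sdha, the flavoprotein of complex II, was not called at 97.04 ± 10.1 against 70.4 ± 11.9 FPKM (adjusted p = 0.0806). Transcripts of the mitochondrial genome did not follow: of 12 protein-coding ones with no library at 0, 12 had a log2 fold change under 0, from -0.37 to -0.06, and 0 were called by limma (0 at an unadjusted p under 0.05, lowest adjusted p 0.198). Median-of-ratios rescaling, with factors from 0.9977 to 1.037, left all 12 under 0, from -0.34 to -0.04. Equal sums outside the mitochondrial genome put them at -0.51 to -0.14. There 0 were called by limma, 3 were at an unadjusted p under 0.05, and the lowest adjusted p was 0.0812. Neither scaling tests the sign, since the first moved the libraries little and the second shifted the median of all features by -0.12. Mitochondrial transcripts as a whole took 46.2% ± 2.25 (SD, n = 4) of summed FPKM in the spinal cord and 54.9% ± 2.49 in the thalamus, and the part of this share in the respiratory chain result was not tested. They were looked at after the nuclear genes had been seen, and COX1 was left out because it is listed at 0 in the spinal cord library of mouse 2.

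Glycolysis and glycogen genes had 17 called higher and 2 lower of 33 tested (37 listed), with a median log2 fold change of 0.56 (8 to 13 and 0 to 1 called with 1 mouse left out). Gpd1, which links glycolysis to glycerol lipids, lay at 43.2, 40.4, 50.3 and 39.6 FPKM in the spinal cord and 5.87, 4.74, 3.04 and 8.55 FPKM in the thalamus (log2 fold change 2.82 ± 0.27 (SE), adjusted p = 0.00554). Pygm, a glycogen phosphorylase of astrocytes and muscle, lay at 257, 265, 259 and 226 FPKM in the spinal cord and 64.4, 51.004, 65.1 and 62.1 FPKM in the thalamus (log2 fold change 2.04 ± 0.12 (SE), adjusted p = 0.00214). Ldhb, a lactate dehydrogenase subunit, had 590.4 ± 68.7 against 166 ± 22.8 FPKM (1.83 ± 0.10). Pfkfb3, an activator of glycolysis, was not called at 100.5 ± 9.12 against 84.97 ± 21.4 FPKM (adjusted p = 0.198). In each called gene named here all 4 spinal cord libraries were above all 4 thalamus libraries.

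Of 52 cytosolic ribosomal protein genes, each tested, 14 were called higher and 0 lower by limma (0 lower at an unadjusted p under 0.05), at a median of 0.38; the number called higher was 0 to 7 with 1 mouse left out (0 without mouse 3, where 16 were higher at an unadjusted p under 0.05) and 8 with the sums outside the mitochondrial genome made equal. Rpl4, a large subunit protein, had 75.3 ± 9.29 against 45.9 ± 4.93 FPKM (0.70 ± 0.09). Leaving out a mouse ended the call of Rpl4 without mouse 3 (highest adjusted p 0.0558). Of 34 tested cholesterol and fatty acid genes (37 listed), 14 were called higher and 2 lower, at a median of 0.45 (1 to 6 and 0 called with 1 mouse left out, and 7 and 2 with equal sums). The desaturase genes Scd1 and Scd2 had 54.3 ± 9.05 against 14.1 ± 0.788 FPKM and 417 ± 18.8 against 199 ± 20.1 FPKM (1.86 ± 0.14 and 1.07 ± 0.12). Loss of the call was seen for Scd2 without mouse 3 (highest adjusted p 0.0503). Of 31 tested lipid carrier, metallothionein and antioxidant genes (33 listed), 14 were called higher and 3 lower (3 to 7 and 1 with 1 mouse left out). Apoc1, an apolipoprotein, had 81.2 ± 5.78 against 17.2 ± 5.72 FPKM (2.23 ± 0.17), and Slc30a10, a manganese exporter, was lower at 27.2 ± 1.999 against 71.2 ± 7.52 FPKM (-1.35 ± 0.09). The cell cycle list had 2 called higher and 4 lower of 19 tested (36 listed; 1 to 2 and 2 to 4 with 1 mouse left out). Cdkn1a, the cycle inhibitor p21, had 67.6, 126, 146 and 72.1 FPKM in the spinal cord and 10.99, 28.2, 28.3 and 11.8 FPKM in the thalamus of mice 1 to 4, where mice 2 and 3 were the higher ones in both regions (log2 fold change 2.37 ± 0.11 (SE), adjusted p = 0.00135). Ccnd1, a D-type cyclin, and Top2a, a topoisomerase of dividing cells, were lower at 0.864 ± 0.108 against 4.36 ± 0.682 FPKM and 1.26 ± 0.274 against 3.84 ± 0.969 FPKM (-1.52 ± 0.12 and -1.08 ± 0.12). Ccnd1 overlaps LTO1 on the other strand, with the same limit on reads. The fit over all 16 libraries ended the call of Top2a (adjusted p = 0.231).

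Growth factor genes had 7 called higher and 6 lower of 33 tested (52 listed; 5 to 6 and 0 to 1 with 1 mouse left out), and chaperone genes 6 and 2 of 21 (24 listed; 1 to 3 and 0). Connexin and endfoot genes had 2 and 2 of 12 (16 listed; 0 to 1 and 0 to 2), and immediate early genes, which respond to cell activity and handling, 2 and 1 of 12 (30 listed; 1 to 2 and 0).

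**Figure D4:**
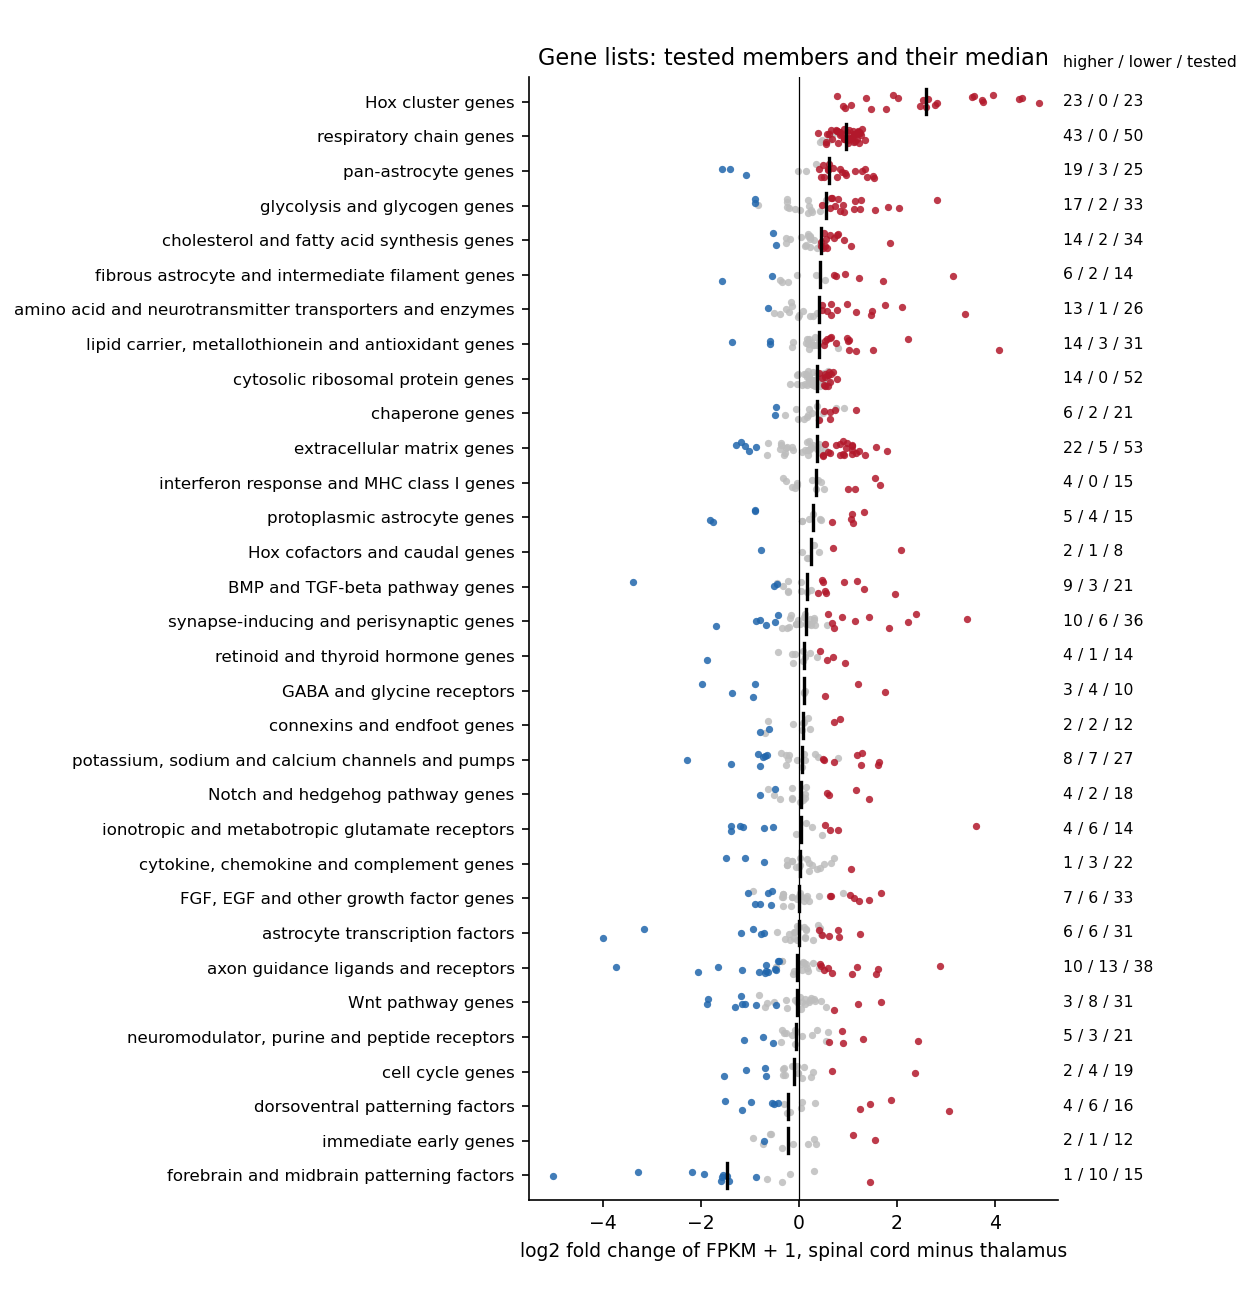
Log2 fold change of FPKM + 1, spinal cord minus thalamus, of each tested member of 32 gene lists, ordered by the list median (black bar), with members called higher in red, called lower in blue and not called in grey. The numbers at the right give members called higher, called lower and tested; Hox genes and the 50 respiratory chain genes stand at the top and forebrain and midbrain factors at the bottom, and most other lists hold calls in both directions.

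The classes of transcript were called in unequal directions. Of 11339 protein-coding genes tested, 1777 were called higher in the spinal cord and 961 lower; of 1335 long noncoding RNAs 60 and 202, of 544 pseudogenes 8 and 95, and of 1008 short RNAs 22 and 74. The median log2 fold change was 0.07 for protein-coding genes, -0.22 for long noncoding RNAs, -0.34 for pseudogenes and -0.31 for short RNAs. This contrast moved together with the higher mitochondrial share and the larger number of detected features in the thalamus libraries; its part in the results was not tested. Short RNAs were also the unsteadiest class: 398 features were at 0 in 1 of the 8 libraries and at 100 FPKM or more in another, and 348 of them were short RNAs.

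The IL-33 negative astrocytes of the same mice gave far fewer calls between the regions, 177 of 13793 features (1.28%), with 107 (0.776%) higher and 70 (0.508%) lower in the spinal cord. Leaving out a mouse left 49, 0, 0 and 2 features called without mice 1 to 4 (1963, 1689, 1676 and 1638 at an unadjusted p under 0.05, against 2041 with all mice). Their replicates were noisier: the median SD over mice of the log2 regional difference was 0.681 across negative and 0.282 across positive libraries, so the smaller number does not show smaller differences. Of 3011 features called in the positive gate and tested in the negative, 2270 (75.4%) had the same sign there, against 60.6% of the 12685 features tested in both. Of 122 features called in the negative gate and tested in the positive, 76 (62.3%) were called in the same direction in the positive. Positional genes recurred: Hoxc8 had 47.8 ± 7.79 against 0.241 ± 0.0898 FPKM and Otx2 0.0671 ± 0.0317 against 43.4 ± 6.61 FPKM in spinal cord and thalamus negative libraries (limma, adjusted p = 0.004402 for both, and 0.0383 to 0.0657 with 1 mouse left out). Both genes passed the filter through 1 region alone in this gate too, so these calls add nothing to the levels. The choroid plexus markers, Otx2 among them, summed to 112 to 187 and 89.5 to 795 FPKM in these libraries. Ependymal markers summed to 149 to 203 and 460 to 795 FPKM. The part of these cell types in the Otx2 level was not tested.

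The regional difference itself was called different between the gates for 143 of 14543 features (0.983%), 46 (0.316%) toward the spinal cord and 97 (0.667%) toward the thalamus in the positive gate, and 85 of these were also called in the positive gate. Among the genes named here 11 were. Slc38a1, high in the spinal cord and below 1 FPKM in the thalamus in the positive gate, had 30.3 ± 6.63 against 58.4 ± 10.3 FPKM in the negative gate, with a difference between gates of 4.32 ± 0.23 (SE), adjusted p = 3.64e-06. Gdf10, higher in the thalamus in the positive gate, had 21.2 ± 15.6 against 15.5 ± 4.18 FPKM in negative ones (-3.62 ± 0.48 (SE), adjusted p = 0.00816). Gas6 and Epha7 were higher in the spinal cord in the positive gate, and in the negative gate had 10.9 ± 2.67 against 9.44 ± 2.36 FPKM and 7.35 ± 0.561 against 9.62 ± 3.997 FPKM (2.04 ± 0.29 (SE), adjusted p = 0.0104; 1.86 ± 0.30 (SE), adjusted p = 0.0176). Gria2, Glrb and Dcc were lower in the spinal cord in the positive gate, and in the negative gate had 15.7 ± 4.296 against 12.3 ± 3.56 FPKM, 33.9 ± 14.3 against 18.6 ± 6.83 FPKM and 1.19 ± 0.7796 against 1.44 ± 0.564 FPKM. The differences between gates were -1.70 ± 0.30 (SE), adjusted p = 0.0262 for Gria2, -2.18 ± 0.43 (SE), adjusted p = 0.0394 for Glrb and -1.85 ± 0.37 (SE), adjusted p = 0.0407 for Dcc. For Lphn2, Enpep, B2m and Ldhb the spinal cord mean was the higher in both gates and the difference larger in the positive: the negative libraries had 15.3 ± 3.67 against 1.65 ± 0.701 FPKM, 4.097 ± 3.696 against 0.307 ± 0.282 FPKM, 393 ± 90.2 against 303 ± 99.6 FPKM and 585 ± 87.4 against 366 ± 56.7 FPKM. Their differences between gates were 1.64, 2.70, 1.26 and 1.15 (adjusted p = 0.0331, 0.0384, 0.0344 and 0.0461). Oligodendrocyte markers moved with this contrast. They summed to 5169 to 5288 FPKM in spinal cord negative libraries and to 712 to 1417 FPKM in thalamus negative ones, and neuron markers to 53.9 to 75.9 and 54.9 to 104 FPKM; their part in the result was not tested. With 1 mouse left out and the same features tested, 90, 20, 12 and 23 features differed between the gates without mice 1 to 4. Of the 11 named genes 6, 2, 2 and 1 were still called, each of the 11 with its sign kept; Slc38a1 was called in all 4 of these fits and Gdf10 in those without mouse 1, 2 or 3.

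**Figure D5:**
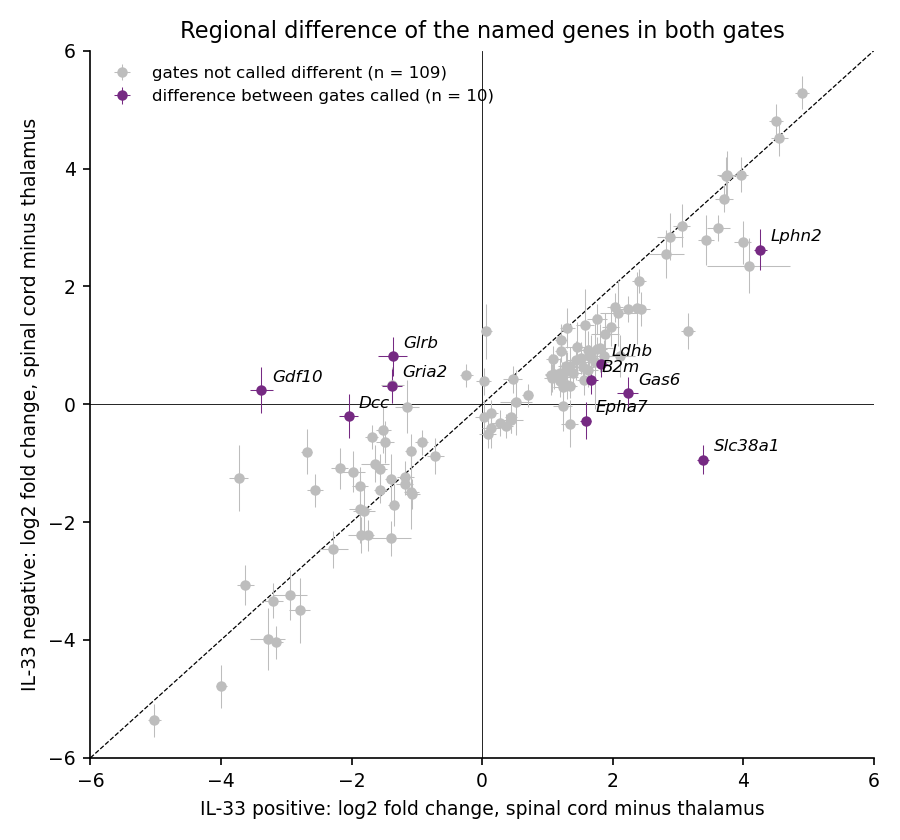
Log2 fold change, spinal cord minus thalamus, of the named genes in the IL-33 positive gate (horizontal axis) and the IL-33 negative gate (vertical axis), with standard errors and the dashed line of equality. Purple points are the 10 plotted genes with a called difference between the gates; Enpep is not plotted because it missed the filter in the negative gate, and Hox genes and Otx2 lie near the line at both ends.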

How the data were processed

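RNA of sorted astrocytes was amplified with NuGEN RNA-Seq V2, per the labels' protocols; no label says whether the libraries keep strand. The deposited table holds FPKM values per gene, with Cuffnorm, Cufflinks, TopHat2 2.0.11, Bowtie2 2.2.3, HTSeq 0.6.1p1 and DESeq2 named in the submitters' processing notes without their roles. FPKM keep no read counts, and low values did not lie on whole-read steps, so no count test was run. Gene positions and types came from the GENCODE annotation of GRCm38. The deposited comparison of positive with negative libraries was not used.

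For the 8 positive libraries, limma (version 3.58.1, under R version 4.3.3) took log2(FPKM + 1) with mouse as a block and a trended prior, for features that reached 1 FPKM in 4 or more libraries. The mouse numbers in the titles tie the libraries to the same animals; deviations from the group means correlated at -0.02 to 0.10 within mice and -0.06 to 0.07 between them. The negative libraries were fitted alike, and the difference between gates over all 16. The script was first tested on simulated data.

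Named genes were chosen by rule among called genes with at least 2 FPKM in the higher region, changed alike in all 4 mice: the 12 largest changes in each direction, the 6 most abundant with a log2 change of at least 1, up to 3 called members of each list in each direction with its most abundant uncalled member, and Il33 and Aldh1l1. Of 209 such genes 121 are printed; some are not reported here. Hoxa3, Hoxb3, Hoxc9, Hoxa5, Hoxa9, Hoxc12, Ttr, Dcn and COX1 lie outside the rule and were chosen after their values were seen. The genes, lists and comparisons were chosen with earlier results of these data known. Alternatives covered the block, pseudocount, filter, scaling, prior and each mouse.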

Additional observations from a re-analysis of the deposited data

Results flagged for a closer look

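In 12 of the 242 groups of 4 positive libraries examined for the named genes, 1 library stood apart from the other 3; chance flags about 1 group in 20, or 12.1 of 242. The library stood above the others for Enpep in thalamus mouse 3 at 0.166 FPKM against 0.0733 to 0.0832, Hoxc6 in thalamus mouse 4 at 0.0740 FPKM against 0 and Aqp4 in thalamus mouse 1 at 758 FPKM against 541 to 572. It also stood above them for Il18 in thalamus mouse 2 at 128 FPKM against 67.1 to 74.7 and Rpl4 in thalamus mouse 2 at 53.3 FPKM against 43.2 to 43.6. It stood below them for Plat in spinal cord mouse 1 at 3.33 FPKM against 4.38 to 4.56, Slc1a3 in spinal cord mouse 1 at 179 FPKM against 219.8 to 226, Slc7a11 in thalamus mouse 2 at 33.1 FPKM against 46.6 to 47.1 and Glul in thalamus mouse 4 at 409.8 FPKM against 505 to 519. The same held for Itih3 in spinal cord mouse 4 at 104 FPKM against 125 to 128, Slc7a2 in thalamus mouse 2 at 20.3 FPKM against 28.98 to 30.2 and Ncam2 in thalamus mouse 4 at 41.3 FPKM against 50.7 to 51.8. The Enpep and Hoxc6 values are close to 0 in every thalamus library. These libraries belong to 4 different mice.

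For 11 named genes the regional difference was called different between the IL-33 positive and IL-33 negative gates with limma (adjusted p at most 0.0461). On the log2 scale, the difference in the positive gate exceeded that in the negative gate, in the direction of the spinal cord, for Enpep (2.70), Lphn2 (1.64), Slc38a1 (4.32), Epha7 (1.86), Gas6 (2.04), B2m (1.26) and Ldhb (1.15). It lay toward the thalamus for Gdf10 (-3.62), Gria2 (-1.70), Glrb (-2.18) and Dcc (-1.85). Slc38a1, a glutamine carrier, and Epha7 had the higher mean in the spinal cord in the positive gate and in the thalamus in the negative. For Gdf10, Gria2 and Glrb the means reversed the other way.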

How the results depend on the processing

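The comparison of regions in positive libraries called 3253 features. The number was 4111 without the mouse as a replicate block and 2667 to 3790 with the other pseudocounts, the stricter filter, either rescaling, the other priors or protein-coding genes alone. It was 1026 with all 16 libraries in the fit and 1939 with no filter on low values. Leaving out 1 mouse gave 522 to 1253, and, with the features of 4 mice (an alternative chosen after seeing the data), 1195, 1379, 693 and 917 without mice 1 to 4. In the negative gate the 177 became 413 without the block, and limma called 0 without any 1 mouse (1463 to 1787 at an unadjusted p under 0.05), or 49, 0, 0 and 2 with the features of 4 mice. The 143 gate differences became 177 without the block, 133 with a pseudocount of 0.1 or median-of-ratios rescaling, and 0 to 59 without 1 mouse (1313 to 2301 at an unadjusted p under 0.05), or 90, 20, 12 and 23 with the features of 4 mice. A fit on 3 mice leaves fewer degrees of freedom. The share of called features that were higher in the spinal cord was 57.7%, and 39.9% with equal sums outside the mitochondrial genome.

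Of 109 named called genes, 109 kept their call without the block, at both other pseudocounts and with median-of-ratios rescaling, 108 with equal sums (not Aldh1l1), 107 with no filter (not Cd81 or Fam107a), 102 with 16 libraries, and 94 to 102 without 1 mouse; none changed sign. A pseudocount of 0.1 made 18 of their log2 fold changes over 1.5 times as large, at most 2.02 times. Depth is unknown, so counting error behind low FPKM cannot be given.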
